A study of Mus musculus with 2 samples.

Results

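The 10 genes described here encode heat shock chaperones: Hspa1a, Hspa1b, Hsph1, Hsp90aa1, Dnajb1, Hspa8, Hspb1, Hspa5, Hspe1 and Hspd1. They were chosen by symbol from the 32285 genes of a droplet single-cell RNA-seq series of mouse brain, and all 10 were present in both libraries. Brain tissue from within about 1 mm of the injection site was collected from C57BL/6 hosts carrying an intracranial graft of KR158, a mouse glioblastoma line. The control host was Cx3cr1 CreER/+ Plxnb2 fl/+, that is, with 1 floxed allele of Plxnb2, the gene of the semaphorin receptor Plexin-B2, although its title calls it WT. The conditional knockout (cKO) host was Cx3cr1 CreER/+ Plxnb2fl/fl, with 2 floxed alleles. Both hosts therefore carried the tamoxifen-dependent recombinase in place of 1 copy of Cx3cr1, a gene of microglia and other myeloid cells. Both received tamoxifen at 100 mg/kg every other day, from 3 days before the graft until 8 weeks after it. The labels give no ages. There was 1 library per genotype, so genotype, host and library preparation cannot be told apart, no p-value can be given, and every interval below covers counting error only.

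Heat shock proteins are chaperones that hold, refold or pass on unfolded proteins. Heat shock factor, a transcription factor, binds arrays of the element GAANNTTC and its reverse pairing TTCNNGAA and raises the inducible members within minutes of heat, oxidation or handling. Hspa1a and Hspa1b encode the inducible cytosolic Hsp70, Hspa8 the constitutive one, Dnajb1 an Hsp40 that delivers clients to Hsp70, and Hsph1 an exchange factor of the Hsp110 family. Hsp90aa1 encodes the stress-responsive form of cytosolic Hsp90 and Hspb1 a small heat shock protein that also guards actin filaments. Hspa5 encodes the Hsp70 of the endoplasmic reticulum (ER) and answers to the unfolded protein response, and Hspd1 and Hspe1 encode the chaperonin and co-chaperonin of mitochondria. In microglia freshly taken from tissue, the inducible members are also known as part of the response to enzymatic dissociation, and both tissues here were digested with papain.

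Filtering kept 7645 control and 5206 cKO cells, in 32 clusters. Before doublet calls were removed, 8 barcode sequences passed the cell limits in both libraries. Clusters were named from marker genes, and each class name below stands for cells like that type. The classes with at least 50 cells, control before cKO, were astrocyte-like (2633 and 1528 cells), microglia-like (1770 and 898), oligodendrocyte-like (940 and 559), endothelial-like (688 and 885), pericyte- or smooth-muscle-like, called mural-like here (167 and 172), ependymal-like (239 and 111), neuroblast-like (142 and 243) and border-macrophage-like (128 and 72). Choroid-plexus-like cells numbered 358 (control) and 4 (cKO), so their levels are given for the control alone. The control matrix held 64756949 UMIs (counted RNA molecules) and only barcodes of at least 500 UMIs. The cKO matrix held 63785513 UMIs, 20.6% of them in barcodes under 500 UMIs. No cluster was named for tumour cells. Plxnb2 stood at 215 (204 to 227) CPM in control and 42.3 (36.5 to 48.7) CPM in cKO microglia-like cells, with CPM meaning UMIs of the gene per 1000000 UMIs of the class and the range a 95% Poisson interval. In border-macrophage-like cells Plxnb2 was at 97.0 (73.6 to 125) and 33.5 (17.9 to 57.4) CPM, and in ependymal-like cells at 254 (241 to 268) and 265 (246 to 285) CPM. Which exons are floxed is not given here, so it is unknown whether these 3′ tags lie in the deleted part.

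Hspa1a lies at chr17:34969190-34972156 and Hspa1b at chr17:34956436-34959238 (mm10, GENCODE vM21), both on the minus strand, both of a single exon and 9951 bases apart. The 250 bases before each start are printed because the pair shares nearly all of them: 247 of 250 positions are identical and 3 differ. Sequences are from RefSeq on GRCm38.p6, 5′ to 3′ on the gene's strand, with capitals marking the 2-unit heat shock element (GAANNTTC or TTCNNGAA, each its own reverse complement).
Hspa1a, chr17:34972157-34972406, minus strand: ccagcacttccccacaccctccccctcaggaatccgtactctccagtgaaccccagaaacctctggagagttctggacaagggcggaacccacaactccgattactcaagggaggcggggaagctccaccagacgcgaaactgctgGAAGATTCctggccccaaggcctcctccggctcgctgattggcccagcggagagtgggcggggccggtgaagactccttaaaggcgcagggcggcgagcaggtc
Hspa1b, chr17:34959239-34959488, minus strand: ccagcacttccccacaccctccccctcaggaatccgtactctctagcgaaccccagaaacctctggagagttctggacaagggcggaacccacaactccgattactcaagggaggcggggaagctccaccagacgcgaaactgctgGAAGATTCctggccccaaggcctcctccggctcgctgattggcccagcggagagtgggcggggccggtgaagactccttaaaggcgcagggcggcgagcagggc
The same element stood 104 bases before the start in both genes. It occurred in 12.8% of the 32817 windows of 250 bases in the promoter table, so a single match is common and is a description only.

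Stretches of 4 more windows are shown to set the motifs of other members beside those of the pair above.
Hspb1, chr5:135887789-135887838, plus strand, 2-unit elements in capitals: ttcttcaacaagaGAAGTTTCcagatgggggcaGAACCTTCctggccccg
Hsph1, chr5:149636352-149636381, minus strand, 2-unit element in capitals: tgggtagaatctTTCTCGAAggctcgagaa
Hspe1, chr1:55088053-55088082, plus strand, overlapping 3-unit elements in capitals: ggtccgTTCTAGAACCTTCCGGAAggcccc
Hspa5, chr2:34772020-34772049, plus strand, ER stress element in capitals: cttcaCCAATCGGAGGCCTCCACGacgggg
Hspb1 held 2 of the 2-unit elements, and Hsph1 held 1. Hspe1 and Hspd1 are divergent neighbours whose 5′ ends overlap by 112 bases, and the same bases gave Hspe1, and 1 of the 2 windows of Hspd1, 3 overlapping 2-unit and 2 overlapping 3-unit elements (GAANNTTC followed after 2 more bases by GAA, or TTCNNGAA followed likewise by TTC). A 3-unit element occurred in 0.466% of windows. Hspa5 held the ER stress element, CCAAT and CCACG with 9 bases between them, searched on both strands and found in 0.113% of windows. Dnajb1 had no match in the window used. Of the 10 members, 8 were in the promoter table; Hsp90aa1 and Hspa8 were not.

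The inducible Hsp70 genes were highest in the macrophage lineage in both libraries. Hspa1a reached 759 (738 to 781) CPM in control and 453 (434 to 473) CPM in cKO microglia-like cells. In border-macrophage-like cells it stood at 522 (465 to 583) CPM (control) and 591 (517 to 673) CPM (cKO). Microglia-like cells were thus above border-macrophage-like cells in the control and below them in the cKO library, in each case without overlap of the intervals, though 1 cell held 32 of the 229 UMIs of the cKO border-macrophage-like class. Vascular cells came next. Hspa1a was at 272 (258 to 286) CPM (control) and 179 (170.4 to 188) CPM (cKO) in endothelial-like cells. In mural-like cells it was at 281 (242 to 324) CPM (control) and 277 (239 to 319) CPM (cKO), which overlapped the endothelial-like level in the control library alone. The neural classes formed a far lower tier: 35.5 and 18.4 CPM in oligodendrocyte-like cells, 29.7 and 48.2 CPM in ependymal-like cells, and 15.6 and 7.28 CPM in astrocyte-like cells, control before cKO. In neuroblast-like cells only 4 control and 8 cKO UMIs of Hspa1a were counted. Choroid-plexus-like cells of the control library were at 38.1 (32.6 to 44.2) CPM.

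Hspa1b followed nearly the same order. It was at 852 (829.8 to 875) CPM in control and 392 (374 to 411) CPM in cKO microglia-like cells. Border-macrophage-like cells had 483 (429 to 542) CPM (control) and 457 (392 to 529) CPM (cKO), and the cKO value overlapped that of microglia-like cells. Endothelial-like cells, at 159 and 111 CPM, and mural-like cells, at 191 and 126 CPM, were again the middle tier. In cKO ependymal-like cells Hspa1b reached 102 (90.3 to 115) CPM, with an interval that overlapped that of endothelial-like cells of the same library, while the control ependymal-like level was 52.7 (46.8 to 59.1) CPM. Astrocyte-like cells held 14.2 and 4.81 CPM and oligodendrocyte-like cells 36.2 and 15 CPM.

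**Figure D1:**
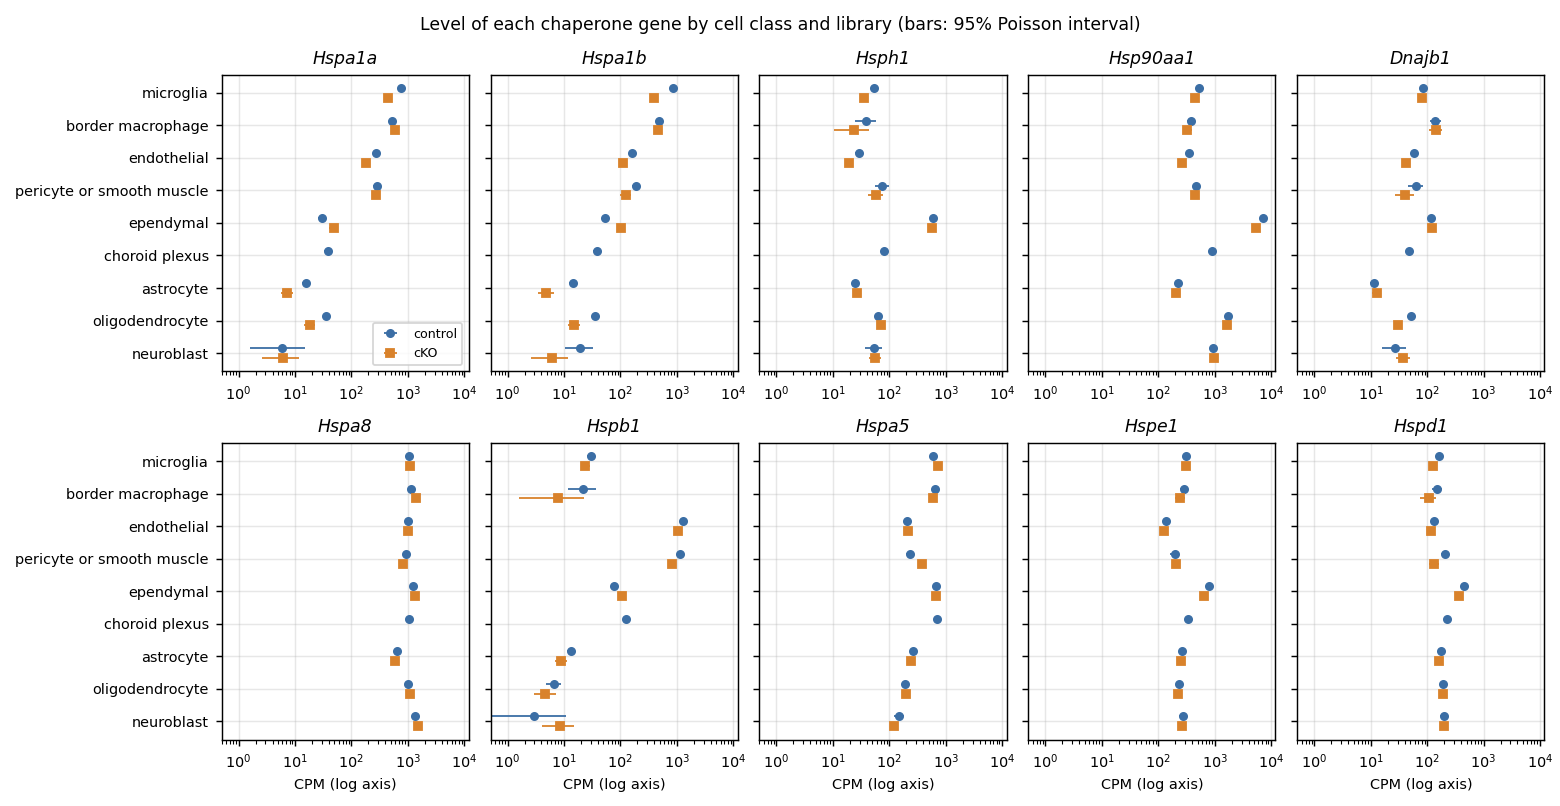
Level of each of the 10 chaperone genes (panels) in each marker-named cell class (rows), as CPM on a log axis, with circles for the control library, squares for the cKO library and bars for the 95% Poisson interval. Hspa1a and Hspa1b are highest in microglia-like and border-macrophage-like cells, Hspb1 in endothelial-like and mural-like cells, and Hsp90aa1 and Hsph1 in ependymal-like cells, while Hspa8 spans the narrowest range.

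How much of the low and middle tiers could be RNA carried over from other cells was described, not corrected. In the cKO matrix, the 1448877 barcodes of 1 to 100 UMIs gave 156 CPM of Hspa1a and 147 (135 to 160) CPM of Hspa1b. Both values were above the levels of every cKO neural class. The Hspa1b value was also above the cKO endothelial-like level of 111 CPM and the mural-like level of 126 (101 to 155) CPM, the latter with overlapping intervals. For Hspa1a the cKO endothelial-like level of 179 CPM and mural-like level of 277 CPM were above that of these barcodes. No such barcodes are in the control matrix. All 12 microglial markers had UMIs in every class and none was at 0. Their summed level in oligodendrocyte-like cells was 1.17% of the microglia-like level (control) and 0.597% (cKO), where Hspa1a stood at 4.67% and 4.06% of its microglia-like level. In astrocyte-like cells the marker sum was at 1.46% and 0.972%, and Hspa1a at 2.06% and 1.61%. In ependymal-like cells the marker sum was at 0.714% and 0.649%, Hspa1a at 3.92% and 10.6%, and Hspa1b at 6.18% and 26.0%. In endothelial-like cells the marker sum was at 0.917% and 0.486% and Hspa1a at 35.8% and 39.5%. The part of free RNA in the levels of the neural and vascular classes was not tested.

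The split between the 2 Hsp70 genes differed among classes. Of the UMIs of both genes together, Hspa1a took 63.1% (61.1 to 65.1) in control and 61.8% (59.9 to 63.7) in cKO endothelial-like cells, with exact Clopper-Pearson 95% intervals. In ependymal-like cells its share was 36.1% (31.6 to 40.7) and 32.1% (27.6 to 36.9), the lowest of the classes with over 50 UMIs of the pair. Both values lay below the 50% line and both endothelial-like values above it. In microglia-like cells the share was 47.1% (46.1 to 48.1) (control) and 53.6% (52.0 to 55.2) (cKO), on either side of an even split. Mural-like cells had 59.6% (53.9 to 65.0) and 68.8% (63.0 to 74.2), and border-macrophage-like cells 51.9% (47.8 to 56.0) and 56.4% (51.4 to 61.3). The cKO barcodes of 1 to 100 UMIs gave 51.4% (48.5 to 54.3). The transcripts are alike (90.7% of 2771 aligned bases), but none of the 411 windows of 90 bases in the last 500 bases of either transcript occurs in the other, so 3′ tags of that length from there can tell them apart. Hspa1a is also overlapped on the plus strand by Gm20481, and whether counting used strand is not given in the sources used here.

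**Figure D2:**
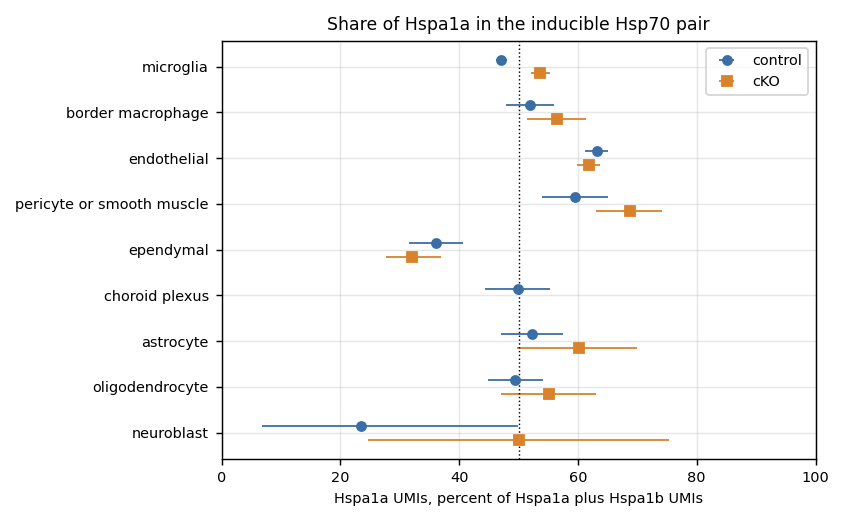
Share of Hspa1a in the summed UMIs of Hspa1a and Hspa1b, in percent, by class (rows) and library (circles, control; squares, cKO), with exact 95% intervals and a dotted line at 50%. Endothelial-like and mural-like cells lie to the right of the line in both libraries and ependymal-like cells to the left, and the neuroblast-like values rest on 17 and 16 UMIs.

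Within microglia-like cells, expression of the inducible members was uneven. After each cell was thinned to 1000 UMIs, Hspa1a was detected in 31.1% (28.9 to 33.3) of control and 15.8% (13.5 to 18.4) of cKO microglia-like cells, against 45.6% and 27.4% as deposited, at median depths of 3392.5 and 4395 UMIs. For Hspa1b the thinned shares were 34.4% (32.1 to 36.6) and 16.4% (14.0 to 19.0), and the shares as deposited 48.1% and 26.1%. The neuroblast-like cells, which had the lowest Hspa1a, gave 0.704% and 0.412% after thinning, at median depths of 4400.5 and 4905 UMIs. That class was picked for its low level, and its shares rest on 1 cell with Hspa1a in each library. They therefore set no background level for other classes, and no shares were taken from near-empty barcodes. The 18 control microglia-like cells with the most Hspa1a, 1% of the class, held 11.4% of its UMIs, and the top 9 cKO cells held 19.0%. A single cKO cell had 68 Hspa1a UMIs.

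Summing Hspa1a, Hspa1b, Dnajb1 and Hsph1 in the thinned cells, 48.0% of control and 72.8% of cKO microglia-like cells had no UMI of the 4 genes. At the other end, 2.54% of control (45 cells) and 1.67% of cKO microglia-like cells (15 cells) had 10 or more, with highest values of 23 and 21. The share with 5 to 9 UMIs was 10.6% and 5.01%. The cKO library thus had more microglia-like cells at 0 and fewer at each higher step, and the top of the range was nearly the same. In the other named classes together, at most 2 cells of a class and library reached 10, and those were border-macrophage-like. In microglia-like cells, Hspa1b was detected more often in cells with Hspa1a than in cells without it. It was found in 58.5% of the 550 control microglia-like cells with Hspa1a and in 23.4% of the 1220 without it. In the cKO library the shares were 55.6% of 142 cells and 8.99% of 756. For Dnajb1 they were closer, 8.91% and 6.48% in the control and 8.45% and 3.44% in the cKO library. In endothelial-like cells Hspa1b was in 18.1% of control cells with Hspa1a and 9.98% of those without, and in 27.3% and 6.15% of cKO cells. In oligodendrocyte-like cells it was in 17.4% of 23 control cells with Hspa1a and 3.38% of 917 without. The cKO shares there were 28.6% of 7 and 0.906% of 552, and in cKO astrocyte-like cells 10% of 10 and 0.725% of 1518. Control astrocyte-like cells had 0% of 41 and 1.77% of 2592, and control choroid-plexus-like cells 0% of 10 and 2.30% of 348. So few cells with Hspa1a cannot show a direction in these last 2 groups. In neuroblast-like cells only 1 cell of each library had Hspa1a.

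**Figure D3:**
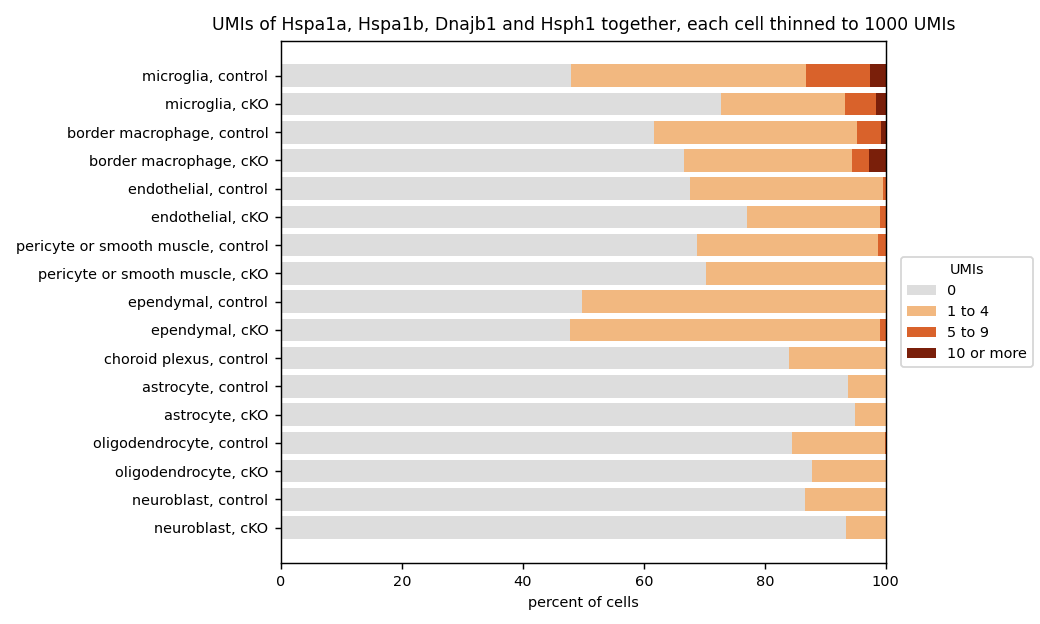
Percent of cells (x axis) by their UMIs of Hspa1a, Hspa1b, Dnajb1 and Hsph1 together, after each cell was thinned to 1000 UMIs, for each class and library (rows). The share at 0 is 48.0% in control and 72.8% in cKO microglia-like cells, and the darkest segment, 10 UMIs or more, is visible mainly in microglia-like and border-macrophage-like cells.

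Neither partner of Hsp70 had the same class order as Hspa1a, and Dnajb1 was closer to it than Hsph1. Dnajb1 (chr8:83608193-83612653) was highest in border-macrophage-like cells, at 140.5 (112 to 174) CPM (control) and 142 (107 to 185) CPM (cKO), with intervals that overlapped those of ependymal-like cells at 115 and 122 CPM. After thinning the order of these 2 classes was reversed in both libraries. Microglia-like cells followed at 83.7 and 80.0 CPM, and astrocyte-like cells were lowest at 11.4 and 12.7 CPM. Hsph1 (chr5:149614287-149636376) was highest in ependymal-like cells, at 595 (574 to 615) CPM (control) and 562 (534 to 591) CPM (cKO). No other class passed 79.7 CPM, the choroid-plexus-like level of the control library, and microglia-like cells had only 54.7 and 36.0 CPM. Over the 17 combinations of class and library, Hspa1a correlated with Hspa1b at a Pearson r of 0.96 on log2(CPM + 1). With Dnajb1 its r was 0.66, and with Hsph1 -0.21. These points share libraries and depth, and r is a description only.

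Hsp90aa1 (chr12:110690605-110702728) had the same 2 leading classes in both libraries. Ependymal-like cells, which line the ventricles and carry motile cilia, held 7132 (7061 to 7203) CPM (control) and 5383 (5297 to 5471) CPM (cKO). Oligodendrocyte-like cells, the myelin-forming class, came second at 1737 (1705 to 1769) and 1674 (1638 to 1712) CPM. The thinned share of cells with a UMI was 99.6% and 99.1% in ependymal-like cells and 79.6% and 79.2% in oligodendrocyte-like cells, against 19.6% and 16.0% in astrocyte-like cells. Neuroblast-like cells came next at 936 and 988 CPM, with the control choroid-plexus-like level of 913 CPM within counting error of the control value. Microglia-like cells had 538 and 454 CPM and astrocyte-like cells, the lowest, 223 and 203 CPM. Ependymal-like and oligodendrocyte-like cells, among the low classes for Hspa1a, were thus the highest for Hsp90aa1.

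Hspa8 (chr9:40800984-40810087, host of 3 small nucleolar RNAs in its span) was the most even member. Its highest level, in neuroblast-like cells, was 1336 (1250.1 to 1426) CPM (control) and 1532 (1466 to 1600.5) CPM (cKO). The lowest, in astrocyte-like cells, was 656 (642 to 671) CPM (control) and 588 (571 to 605) CPM (cKO). The gap between these classes was 2.04-fold in the control and 2.61-fold in the cKO library. In the control library the intervals of microglia-like, choroid-plexus-like, endothelial-like and oligodendrocyte-like cells, between 1028 and 1050.2 CPM, overlapped from each class to the next.

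Hspb1 (chr5:135887919-135889563) was highest in the cells of the vessel wall. Endothelial-like cells held 1269 (1239 to 1299.9) CPM (control) and 1063 (1041 to 1085) CPM (cKO). Mural-like cells held 1144 (1064 to 1228) CPM (control) and 811 (745 to 881) CPM (cKO). All other classes were at 125 CPM or below, and oligodendrocyte-like cells at 6.70 and 4.71 CPM. After thinning, 67.6% (63.9 to 71.1) of control and 61.4% (58.1 to 64.6) of cKO endothelial-like cells had a UMI, against 0.638% and 0.716% of oligodendrocyte-like cells, at median depths of 5968.5 and 7226 and of 6401.5 and 7585 UMIs. The sum of the 12 endothelial markers in mural-like cells was 1.65% of the endothelial-like level in the control (11 of 12 with a UMI) and 5.56% in the cKO library (12 of 12). The cKO barcodes of 1 to 100 UMIs gave 242 CPM of Hspb1. The part of carried-over RNA in the mural-like Hspb1 level was not tested.

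Hspa5 (chr2:34771970-34777547), the ER chaperone, split the classes of the control library into high and low groups, with mural-like cells between them in the cKO library. Choroid-plexus-like cells of the control had 691 (666 to 715) CPM and ependymal-like cells 687 (665 to 709.7) CPM (control) and 671 (641 to 703) CPM (cKO). Border-macrophage-like cells, at 637 and 604 CPM, and microglia-like cells, at 603 (584 to 623) and 744 (719.6 to 769.9) CPM, completed the high group. Its highest class changed, passing to ependymal-like or border-macrophage-like cells under 3 of the other settings in the control library and 1 in the cKO library. Mural-like cells were at 234 CPM in the control. In the cKO library they were at 381 (336 to 429.8) CPM, overlapping neither border-macrophage-like nor astrocyte-like cells. Astrocyte-like cells were at 262 and 245 CPM, and neuroblast-like cells were lowest at 148 and 119.9 CPM.

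The mitochondrial partners Hspe1 (chr1:55088132-55091307, plus strand) and Hspd1 (chr1:55077835-55088243, minus strand) were both highest in ependymal-like cells. Hspe1 was at 789 (766 to 813) CPM (control) and 650.4 (620.5 to 681) CPM (cKO). Hspd1 was at 444 (426 to 462) CPM (control) and 360.2 (338 to 383) CPM (cKO). In the other classes Hspe1 ranged from 137 CPM in endothelial-like to 340.2 CPM in choroid-plexus-like cells of the control, and Hspd1 from 131 to 226 CPM in the same classes. Although they share a promoter, their order was not identical. Microglia-like cells ranked 3 for Hspe1 in the control (306 CPM) but 7 for Hspd1 (164 CPM), with intervals that overlapped both neighbours for Hspd1. For Hspe1 their interval overlapped those of border-macrophage-like and neuroblast-like cells, ranked 4 and 5, so neither rank is sharp. Their r over the 17 points was 0.80, while Hspd1 and Hsph1 reached 0.92 and Hspd1 and Hsp90aa1 0.86.

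The comparison of cKO with control was made in the 7 classes with at least 100 cells in each library. A member was called higher or lower where its log2 ratio of cKO to control CPM reached 1.5-fold with a 95% exact conditional interval that left out 0, among genes with a mean of at least 20 CPM. Of the 70 pairs of member and class, 8 were below that level: Hspa1a, Hspa1b, Dnajb1 and Hspb1 in astrocyte-like cells, Hspa1a, Hspa1b and Hspb1 in neuroblast-like cells, and Hspb1 in oligodendrocyte-like cells. Of the other 62, 3 were called higher and 9 lower in the cKO library. Over all genes tested, the share called higher ran from 0.396% in oligodendrocyte-like to 5.8% in mural-like cells. The share called lower ran from 0.823% in ependymal-like to 3.44% in neuroblast-like cells. Of the 12 calls on members, 8 fell on Hspa1a or Hspa1b. Library-wide measures differed too: rRNA-like gene models took 3.15% of UMIs in control and 1.5% in cKO cells, mitochondrial UMIs 5.12% and 4.45%, and the median depth 4626 and 5917 UMIs. The part of these in the ratios was not tested.

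**Figure D4:**
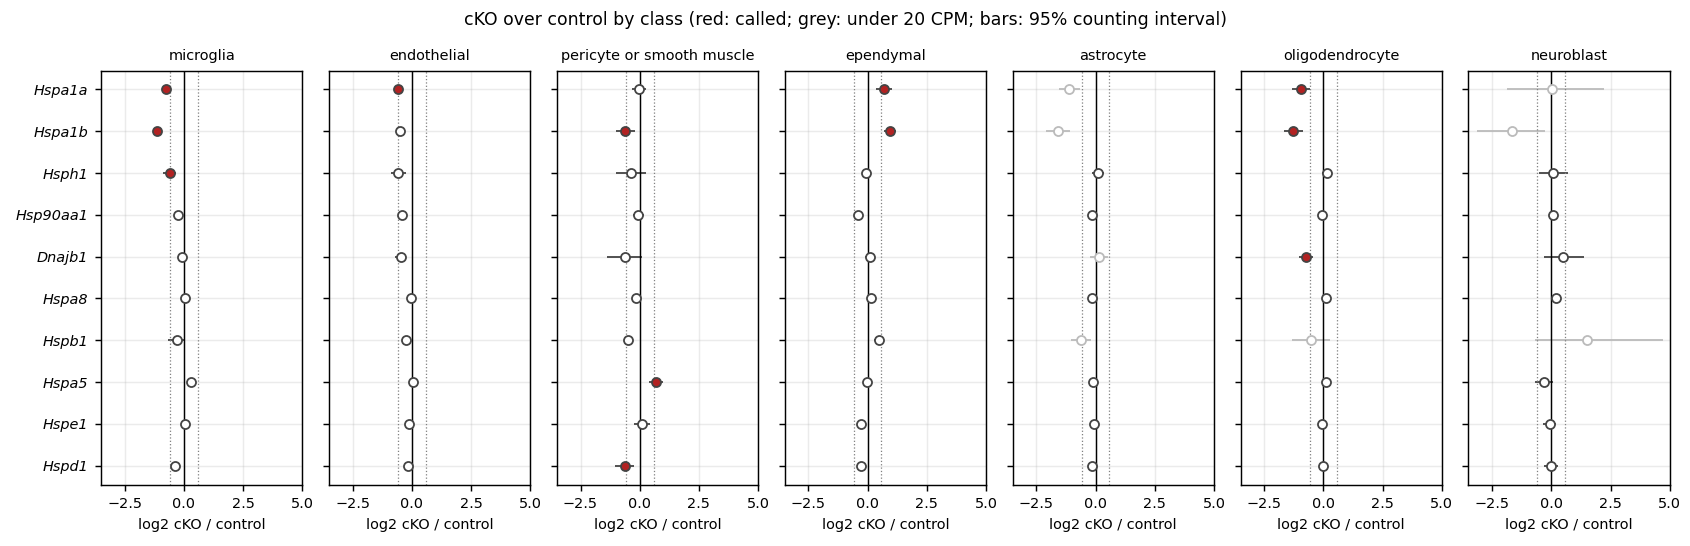
Log2 ratio of cKO to control CPM (x axis) for each member (rows) in the 7 classes compared (panels), with bars for the 95% counting interval and dotted lines at 1.5-fold. Red points are called, open dark points are not, and grey points have a mean under 20 CPM; the red points include Hspa1a, Hspa1b or both in 5 of the 7 panels.

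In microglia-like cells, a type known to express the driver gene Cx3cr1, 3 of 10 members were lower in the cKO library and none was higher, where 2.41% of the 6400 genes tested were lower and 2.94% higher. Hspa1a was at 759 CPM (control) and 453 CPM (cKO), a log2 ratio of -0.74 (-0.82 to -0.67). Hspa1b went from 852 to 392 CPM, a log2 ratio of -1.12 (-1.20 to -1.04). These 2 stayed past 1.5-fold under all other settings run. Hsph1, at 54.7 and 36.0 CPM, had a ratio of -0.60 (-0.88 to -0.33) and fell short of 1.5-fold in 4 of 12 other settings, down to -0.48 after thinning. Dnajb1, the Hsp40 partner, was at 83.7 and 80.0 CPM, a ratio of -0.065 (-0.26 to 0.13), but 1 cKO cell held 38 of its 365 UMIs and the top 9 cells 32.6%. After thinning its ratio was -0.39, on 142 and 55 UMIs, and it was detected in 7.23% (6.07 to 8.54) of control and 4.23% (3.01 to 5.76) of cKO cells, so the shares of cells lay on the same side as for Hspa1a and Hspa1b without overlap. Hspa8 was at 0.048 (-0.0051 to 0.10), Hspe1 at 0.044 (-0.055 to 0.14), Hspd1 at -0.36 (-0.51 to -0.21) and Hsp90aa1 at -0.24 (-0.32 to -0.17), none of them called. The ER member Hspa5 was on the other side of 0, at 0.30 (0.24 to 0.37), also uncalled. The members' median was -0.28, against -0.017 over all genes tested. The immediate early genes, which respond to handling as well, summed to 9560.4 CPM in control and 10422 CPM in cKO microglia-like cells. Of the 18 tested, 4 were higher and 2 lower, so the sum mixes both directions. The part of handling in the Hsp70 ratios was not tested.

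Border macrophages are also known to express Cx3cr1, but the class had only 72 cKO cells, under the minimum for calls. Their Hspa1a was at 522 and 591 CPM, a ratio of 0.18 (-0.073 to 0.43), and their Hspa1b at 483 and 457 CPM, a ratio of -0.081 (-0.36 to 0.19). Neither interval reached the microglia-like ratio of the same gene, and the difference between the classes was not tested. Their immediate early sum was 7379.5 CPM (control) and 12526 CPM (cKO).

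In endothelial-like cells 1 of 10 members was lower and none higher, beside 1.35% and 1.03% of 6292 genes. Hspa1a was at 272 and 179 CPM, a log2 ratio of -0.60 (-0.71 to -0.50), just past 1.5-fold, and -0.30 after thinning. Hspa1b at -0.52 (-0.65 to -0.38), Hsph1 at -0.57 (-0.89 to -0.24), Dnajb1 at -0.47 (-0.69 to -0.24) and Hsp90aa1 at -0.43 (-0.52 to -0.34) lay on the same side without reaching the fold. Hspb1, the member most typical of this class, was at -0.26 (-0.30 to -0.21), and Hspa8 at -0.028 (-0.076 to 0.021). The median of the 10 was -0.34 against 0.017 over all genes. The immediate early sum was 7028 CPM in control and 5681 CPM in cKO cells, and its part in these ratios was not tested.

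Mural-like cells had 1 member higher and 2 lower of 10, beside 5.8% higher and 3.03% lower of 6591 genes, the largest background share of higher calls among the 7 classes. Hspa5 was at 234 (199 to 274) CPM (control) and 381 (336 to 429.8) CPM (cKO), a ratio of 0.70 (0.41 to 1.00). Hspa1b was lower, at 191 and 126 CPM and a ratio of -0.60 (-1.01 to -0.20), while Hspa1a was at -0.019 (-0.32 to 0.28). Hspd1, at 206 and 133 CPM, had a ratio of -0.63 (-1.03 to -0.24). With the mitochondrial limit at 5%, which left 63 control and 75 cKO cells, Hspa1b was at -0.087 and Hspd1 at -0.45. After thinning, Hspa5 was at 0.32. The median of the 10 was -0.26 against 0.059 over all genes. These counts rest on 42 to 762 control UMIs per member, the fewest among the classes with all members tested.

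Ependymal-like cells went the other way for the inducible pair: 2 of 10 members were higher and none lower in the cKO library, beside 1.97% and 0.823% of 7173 genes. Hspa1a was at 29.7 CPM (control, 162 UMIs) and 48.2 CPM (cKO, 132 UMIs), a ratio of 0.70 (0.35 to 1.04). Hspa1b was at 52.7 CPM (287 UMIs) and 102 CPM (279 UMIs), a ratio of 0.95 (0.71 to 1.20). After thinning, Hspa1a rested on 11 control and 4 cKO UMIs and its ratio turned to -0.35, and Hspa1b, on 14 and 10 UMIs, was at 0.62 and not called. Hsp90aa1, whose level was highest in this class, was at -0.41 (-0.43 to -0.38), and Hspe1 and Hspd1 at -0.28 and -0.30. Hspb1 was at 0.49 (0.27 to 0.71). The median was 0.027, close to 0.019 over all genes. In the same cells the immediate early sum was 1383 CPM (control) and 2888 CPM (cKO), and its part in the Hsp70 result was not tested.

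In oligodendrocyte-like cells 3 of 9 tested members were lower and none higher, beside 1.33% and 0.396% of 5808 genes. Hspa1a was at 35.5 and 18.4 CPM, a ratio of -0.95 (-1.32 to -0.58), and -0.26 with the mitochondrial limit at 5%; 1 cKO cell held 25 of the 86 UMIs. Hspa1b was at 36.2 and 15 CPM, a ratio of -1.27 (-1.68 to -0.88). Dnajb1 was at 50.8 and 30.4 CPM, a ratio of -0.74 (-1.04 to -0.45), and -0.084 after thinning. All 3 had low levels, and microglial marker RNA in these cells was lower in the cKO library by the percentages given above; its part was not tested. The abundant members Hsp90aa1, at -0.053 (-0.094 to -0.011), and Hspa8, at 0.11 (0.056 to 0.16), were close to equal. The median over the 9 was -0.053, against 0.011 over all genes.

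No member was called in astrocyte-like cells, 0 of 6 tested, beside 0.726% of 6475 genes higher and 1.02% lower. Their ratios ran from -0.16 (-0.21 to -0.11) for Hspa8 to 0.10 (-0.16 to 0.36) for Hsph1, with a median of -0.11 against 0.032 over all genes. Hspa1a and Hspa1b were below 20 CPM and so not tested, but both were lower in the cKO library. Hspa1a was at 15.6 CPM in control (193 UMIs) and 7.28 CPM in cKO cells (59 UMIs), a log2 ratio of -1.1. Hspa1b was at 14.2 CPM in control (176 UMIs) and 4.81 CPM in cKO cells (39 UMIs). The part of free RNA in these low levels was not tested. None of the 7 members tested in neuroblast-like cells was called either, beside 2.18% higher and 3.44% lower of 6158 genes. Hspa8 was at 0.20 (0.084 to 0.31) and Dnajb1, on 18 and 50 UMIs, at 0.51 (-0.29 to 1.37). The median was 0.073, against 0.0083 over all genes.

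Clusters inside the classes, formed without any member or listed stress gene, are described next. Cluster 0, the largest microglia-like cluster (1309 and 566 cells), had Hspa1a at 753 and 479 CPM, a ratio of -0.65 (-0.73 to -0.57), and Hspa1b at 835 and 390.2 CPM, a ratio of -1.10 (-1.18 to -1.02). Clusters 6 and 12 were shallow, with median depths of 0.281 and 0.273 times that of all cells. Cluster 6 (355 and 150 cells) had the highest Hspa1a of any cluster with at least 50 cells, 1074 and 593 CPM, and Hspa1b at 1317 and 907 CPM. Cluster 12 (106 and 182 cells) was low, at 119.6 CPM on 25 UMIs in the control and 9.71 CPM on 3 UMIs in the cKO library. The lower level of both genes was thus also seen in cluster 0 taken by itself, without the shallow clusters. Hspa5 was higher in the cKO part of cluster 6, 801 and 1195 CPM, a ratio of 0.58 (0.35 to 0.80).

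Among endothelial-like clusters, cluster 16, led by the arterial-type genes Gkn3 and Bmx (83 and 107 cells), had Hspa1a at 359 and 168 CPM, a ratio of -1.09 (-1.35 to -0.83), and Hspa1b at a ratio of -1.24 (-1.61 to -0.87). Cluster 3, the largest, had Hspa1a at 245 and 166 CPM, a ratio of -0.57 (-0.70 to -0.43). The interval of cluster 16 did not overlap that of cluster 3. The 2 mural-like clusters differed in their chaperones. Cluster 20, led by Acta2 and Myh11 of smooth muscle, had Hspb1 at 1601 and 1255 CPM and Hspa1a at 378 and 464 CPM. Cluster 15, led by the pericyte genes Abcc9 and Kcnj8, had Hspb1 at 319.7 and 274 CPM and Hspa1a at 105 and 51.0 CPM. For Hspa5 the order was reversed, 383 and 558 CPM in cluster 15 against 152 and 235 CPM in cluster 20, and both clusters had positive ratios, 0.54 (0.17 to 0.92) and 0.63 (0.15 to 1.11).

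**Figure D5:**
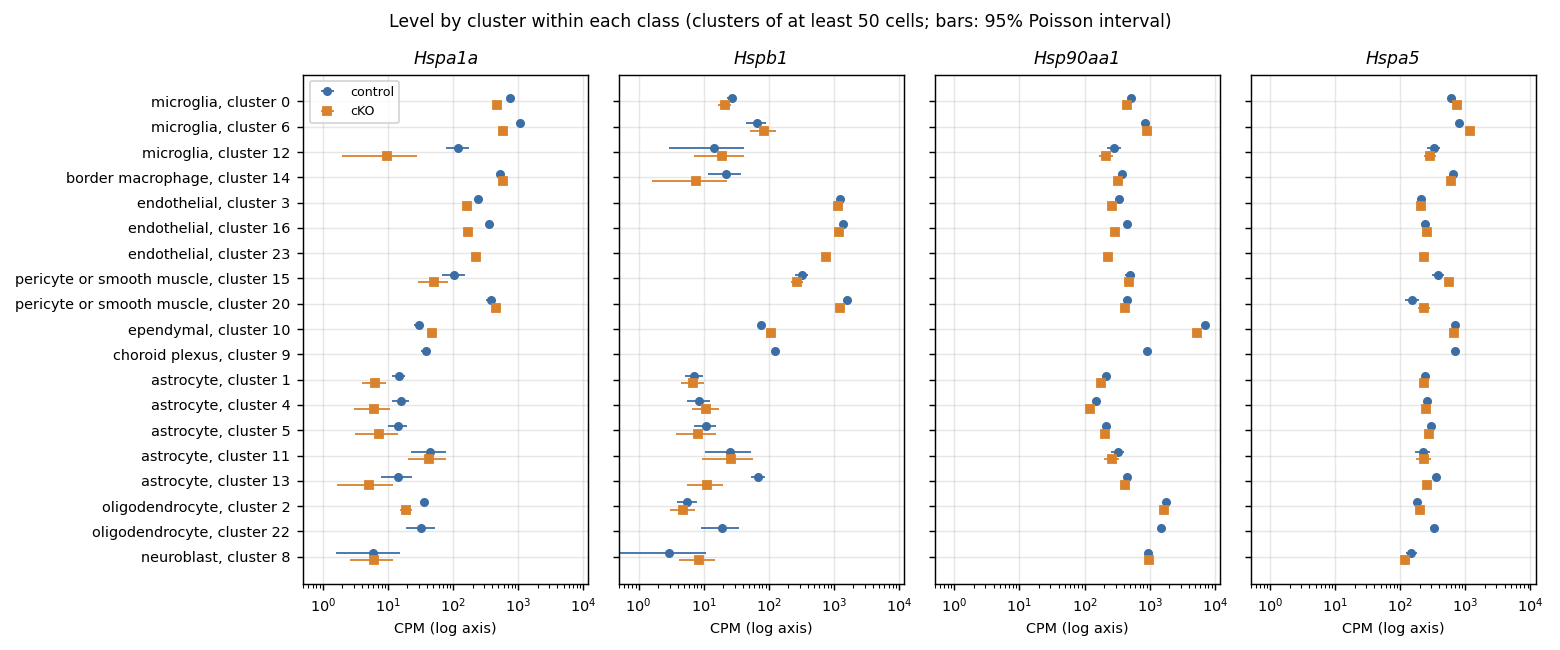
CPM on a log axis of Hspa1a, Hspb1, Hsp90aa1 and Hspa5 (panels) in each cluster of at least 50 cells in a library (rows, grouped by class), with circles for control, squares for cKO and 95% Poisson bars. Within the mural-like class, cluster 20 lies above cluster 15 for Hspb1 and Hspa1a and below it for Hspa5, and within microglia-like cells cluster 12 lies far below clusters 0 and 6 for Hspa1a.

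In the astrocyte-like clusters 1, 4, 5 and 13, control Hspa1a ran from 14.2 to 16.0 CPM and control Hspa1b from 7.12 CPM in cluster 13 (7 UMIs) to 16.9 CPM in cluster 5. Their cKO Hspa1a ran from 5.06 to 7.35 CPM. The shallow cluster 11 was higher, with Hspa1a at 44.0 and 43.2 CPM on 12 and 10 UMIs. Cluster 13, led by Gfap and Thbs4, had the highest Hsp90aa1 of the astrocyte-like clusters, 449 and 415 CPM. Its Hspb1 was at 69.2 CPM (control) and 11.1 CPM (cKO), but 1 control cell held 40 of the 68 UMIs. Of the clusters that received no class name, cluster 19 carried markers of T cells together with those of NK cells (74 and 79 cells). It had Hspa1a at 514 and 229 CPM, Hspa1b at 688 and 436 CPM, and the highest Dnajb1 of any cluster with at least 50 cells, 265 and 212 CPM. Cluster 17, with markers of cycling progenitors and neuroblasts (87 and 98 cells), had almost no Hspa1a, 8 UMIs in each library. It had high Hspe1, 659 and 544 CPM, high Hspd1, 412 and 436 CPM, and Hsp90aa1 at 1527 and 1527 CPM. In cluster 24, cycling cells with microglial markers (1 control and 51 cKO cells), Hspa1a was at 78.4 (55.5 to 108) CPM, below cKO cluster 0.

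The lists of related genes, described by the same call rule, placed the members in context. Values in brackets are control before cKO CPM and the log2 ratio. Of the 15 further genes of the heat shock factor list, 10 were tested in microglia-like cells, of which 3 were lower and none higher, with a median of -0.35. These were Cryab, a small heat shock protein (53.9 and 18.6 CPM, log2 ratio -1.53), the Hsp90 co-chaperone Chordc1 (83.9 and 53.3 CPM, -0.66) and the Hsp40 gene Dnaja1 (332 and 216 CPM, -0.62). The share of lower calls over all genes of this class was 2.41%. Cryab is also a leading gene of the oligodendrocyte-like cluster 2, at 4093 and 3466 CPM in that class. The summed level of the 12 oligodendrocyte markers in microglia-like cells, all with a UMI, was 1.80% of the oligodendrocyte-like level in control and 1.16% in cKO cells, and its part in the Cryab ratio was not tested. None of the list was called in endothelial-like, mural-like, oligodendrocyte-like or astrocyte-like cells. Cryab alone was lower in ependymal-like (-0.59) and neuroblast-like cells (-1.22), beside 0.823% and 3.44% of all genes. Among the constitutive cytosolic chaperones, Bag1, an exchange factor of Hsp70, was the only call in microglia-like cells, at 88.6 and 150.2 CPM and 0.76. It was 1 of 15 tested, beside 2.94% of all genes called higher. Hspa2 was higher in oligodendrocyte-like cells (0.66), 1 of 16 tested beside 0.396% of all genes. Hspa14 was higher in neuroblast-like cells (0.85), 1 of 15 beside 2.18%. None of the 8 subunits of TRiC, the cytosolic chaperonin that folds actin and tubulin, was called in any of the 7 classes. Over all genes, 0.396% to 5.8% were called higher and 0.823% to 3.44% lower by class, so this absence is a description only.

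Of the 18 ER genes, none was called in microglia-like cells, but 16 of 18 had ratios above 0, with a median of 0.19 and a highest value of 0.46 for Dnajb11, an ER Hsp40. In mural-like cells 2 of 16 tested were higher, Manf (79.5 and 149 CPM, 0.90) and the lectin chaperone Canx (138 and 214 CPM, 0.63), and 14 of 16 were above 0, with a median of 0.47, on the same side as Hspa5 there. Over all genes of this class 5.8% were called higher and the median was 0.059. P4hb was lower in neuroblast-like cells (-0.59), where 3.44% of all genes were. The mitochondrial list had calls in ependymal-like cells alone, where the proteases Htra2 (-0.66) and Spg7 (-0.59) were lower, 2 of 10 beside 0.823% of all genes.

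The immediate early genes did not move with the inducible Hsp70 pair in the same way in every class. In ependymal-like cells 10 of 17 tested were higher (1.97% of all genes) and none lower, with a median of 0.93, led by Fos (67.7 and 419 CPM, 2.63), Junb (2.53), Dusp1 (2.42) and Ier2 (2.20). In microglia-like cells 4 of 18 were higher (2.94% of all genes), among them Atf3 (1.01), Ier3 (0.84) and Nr4a1 (0.71), and 2 were lower (2.41%), among them Klf2 (-0.97). In endothelial-like cells 1 of 18 was higher (Ier3, 0.81), beside 1.03% of all genes, and 3 lower, beside 1.35%: Nr4a1 (-1.09), Atf3 (-0.65) and Fosl2 (-0.62). In mural-like cells 5 of 19 were higher (5.8% of all genes), with Klf4 (1.74) and Atf3 (1.45) first, and 1 lower (3.03%). Neuroblast-like cells had 3 of 10 higher (2.18% of all genes), led by Fos (1.11), and oligodendrocyte-like and astrocyte-like cells had no call among 4 and 7 tested.

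The genes whose class pattern was most like that of 4 members were listed by r over the same 17 points. For Hspa1a they were Stat6 and Serinc3 (both 0.96), Sh2b3 (0.96), Ehd4 (0.96) and Rcsd1 (0.95). For Hspa5 they were Entpd7 and Calr (both 0.93), Nfatc2 (0.92), Rogdi (0.91) and Lgals3 (0.90), and Calr encodes an ER chaperone of the list above. For Hspd1 they were Lrrc56 (0.95), Ift80 (0.94), Ccpg1os (0.94), Dzank1 (0.94) and Stip1 (0.93), the last a co-chaperone that links Hsp70 to Hsp90. For the evenly expressed Hspa8 the values were lower: G3bp2 (0.92), Atp6v1g1 (0.92), Nfil3 (0.90), Fbl (0.88) and Supt4a (0.87).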

How the data were processed

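Droplet 3′ single-cell RNA-seq counts of 1 control and 1 cKO library were used. Per the labels and the submitters' processing notes, the authors made the deposited counts of UMIs per gene and barcode with Cell Ranger 7.1.0 on mm10; whether introns or strand were used is not given in these sources. The control matrix holds barcodes of at least 500 UMIs, and the cKO matrix all barcodes. Gene positions came from GENCODE vM21, which held 99.6% of the gene IDs.

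Cells with at least 1000 UMIs, at least 500 genes and at most 10% mitochondrial UMIs were kept, which 8068 control and 5398 cKO barcodes met. Scrublet (expected rate 6%) then removed 423 (5.24%) and 192 (3.56%). Both libraries were clustered together without integration: 2000 variable genes without the members, listed genes, mitochondrial and sex-linked genes, 30 components, 15 neighbours and Leiden at resolution 1.0 (Python 3.11.15, scanpy 1.11.5, leidenalg 0.10.2). A cluster was named where at least 3 markers, and at least 50% of a class's markers, were in at least 10% of its cells and at least 2-fold above the other clusters' mean. The 50% rule was set after seeing the data and left out cluster 21 (99 control and 24 cKO cells). Clusters led by another class's markers (over their 10 leading genes), or with at least 75% of a second class's markers, stayed unnamed, as did shallow clusters with none of their markers among these genes. Members, lists and the 75% rule were chosen with earlier results of these data known.

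UMIs were summed per class and library, as CPM with exact Poisson intervals, shares of cells with Clopper-Pearson intervals and ratios with exact conditional intervals, all at 95% and covering counting error only (scipy 1.17.1). Shares were also taken after thinning each cell to 1000 UMIs. The 10 members are named throughout; of each other list, up to 4 genes per class with the largest absolute log2 ratio at a mean of at least 20 CPM could be named, and for Hspa1a, Hspa8, Hspa5 and Hspd1 the 5 genes of highest r (mitochondrial, ribosomal protein, Gm, Rik and sex-linked genes left out). The scripts were tested on simulated data.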

Additional observations from a re-analysis of the deposited data

Results flagged for a closer look

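Hspa1a and Hspa1b had ratios of opposite direction in different classes, and the difference between classes was not tested, since each genotype had 1 library. The log2 ratio of cKO to control for Hspa1a was 0.70 in ependymal-like cells but -0.60 in endothelial-like, -0.74 in microglia-like and -0.95 in oligodendrocyte-like cells. For Hspa1b it was 0.95 in ependymal-like cells but -1.12 in microglia-like, -1.27 in oligodendrocyte-like and -0.60 in mural-like cells. After thinning, Hspa1a turned to -0.35 in ependymal-like cells and was at -0.30 in endothelial-like cells. With the mitochondrial limit at 5%, Hspa1a was at -0.26 in oligodendrocyte-like and Hspa1b at -0.087 in mural-like cells.

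The cKO barcodes of 1 to 100 UMIs, which enter no comparison, held RNA of every member. Their levels were 156 CPM for Hspa1a, 147 CPM for Hspa1b, 66.9 CPM for Hsph1, 664 CPM for Hsp90aa1 and 71.0 CPM for Dnajb1. Hspa8 stood at 938 CPM, Hspb1 at 242 CPM, Hspa5 at 401 CPM, Hspe1 at 248 CPM and Hspd1 at 172 CPM. The level in all kept cKO cells, divided by that in these barcodes, was lowest for Dnajb1 (0.644), Hspa1b (0.703), Hspa5 (0.813) and Hspa1a (0.855) and highest for Hsp90aa1 (1.27) and Hspb1 (1.75).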

How the results depend on the processing

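No paired analysis was possible because each genotype had 1 library, and for the same reason no library could be left out. The choices tried were cell filters, Scrublet calls, clustering resolution, thinning, the mean over cells, the denominator, centring, the minimum level, the fold threshold and the Hsp70 pair summed. With each cell thinned to 1000 UMIs, 0 pairs of member and class were called higher (3 in the main result) and 5 lower (9 in the main result), and the astrocyte-like median was -0.0060 (-0.11 in the main result). Thinning leaves few UMIs, and it turned Hspa1a in ependymal-like cells from 0.70 to -0.35. At a 2-fold threshold 0 pairs were called higher and 2 lower. Under the other settings 2 to 4 pairs were called higher and 6 to 13 lower, with 6 where the Hsp70 pair was summed and 13 without a minimum CPM. Leaving out the shallow clusters 6, 11 and 12, chosen after seeing the data, gave 3 higher and 9 lower. The share of all genes called under each of these settings is not given here. A change in these counts is therefore not read as a result about the members. The highest class of each member held under the settings run, except for Hspa5 and for Dnajb1, which passed to ependymal-like cells after thinning in both libraries and at 5% mitochondrial UMIs in the cKO library. Low UMI counts limit the values of Hspa1a, Hspa1b and Hspb1 in the neural classes, and Poisson intervals do not show where 1 cell holds many of the UMIs.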
